A study of Mus musculus with 40 samples.

Results

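Wild-type spleen B cells cultured for 18 h with no cytokine were compared with B cells of the same mice before culture. The comparison took in 10 of the 40 arrays of the series, 5 from cultured cells and 5 from cells before culture, all from wild-type mice numbered 6 to 10 and chosen by their labels. The cells came from C57BL/6 mice of 12 weeks, were purified from spleen by negative selection, and were cultured in RPMI-1640 with 10% fetal calf serum and nothing else. The series also holds wild-type mice 1 to 5 before culture, Dock10 knockout mice in the matching states, and both genotypes cultured with 10 ng per ml of IL-4. Every array set 1 mouse's RNA, labelled with Cy5, against a common reference labelled with Cy3, which was a pool of B cells from 5 Dock10 knockout mice before culture. A value is the log2 ratio to that pool and a difference is cultured minus before, so a positive difference means more RNA in cultured cells. A ratio gives no absolute level, so levels of different genes were not compared and the absence of a gene could not be read.

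Purified resting B cells meet several changes at once when they leave the spleen. Tissue dissociation and handling are known to induce immediate early genes, whose short-lived transcripts encode transcription factors and feedback inhibitors and fade within hours. Resting B cells also lose the survival and positioning signals of the follicle, such as BAFF and chemokines, and in culture without them many die. Nutrient and stress pathways also matter in medium: ATF4, translated when amino acids run short, raises amino acid synthesis and transport, and NRF2, freed by oxidants, raises antioxidant enzymes.

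Of 11 defining B cell markers measured, Fcrla rose, Cd74 and Ly6d fell, and 8 were not called (median -0.27). Without mouse 10, 6 of the 11 fell and 1 rose. After quantile normalization 1 fell and 2 rose (median -0.2). Against the low-background arrays described below 1 fell and 1 rose (median -0.03). With the dark corner ratio, also described below, as a covariate 1 fell and 2 rose (median -0.03). Over all genes 26.4% fell and 13.2% rose, and the main counts of these markers lay below those shares. Cd79a, the signalling chain of the antigen receptor, had ratios of -0.34, 0.23, 0.06, 0.02 and 0.01 in cultured cells of mice 6 to 10, against 0.18, 0.44, 0.30, 0.52 and -0.08 before culture (limma adjusted p = 0.108). Ms4a1, the CD20 gene, averaged -0.90 ± 0.40 in cultured cells and -0.29 ± 0.68 before culture (SD, n = 5 each, limma adjusted p = 0.0604). Fcer2a, the CD23 gene of follicular B cells, differed by -0.21 ± 0.25 (SE, limma adjusted p = 0.521). The array ranges of all 3 genes overlapped between the states. Mice are the replicates. Each main p-value rests on the spread between mice within a group, pooled over the 6 groups (30 arrays) of the fit, knockout and IL-4 arrays included. In bulk samples, fewer cells of a type and less RNA per cell cannot be told apart.

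Some features of the arrays touch every result. The dark corner spots, which carry no probe and report background, had log2 ratios of -1.29 to -0.82 in cultured arrays, against 0.14 to 0.68 in mice 6 to 9 and -0.91 in mouse 10 before culture, so background moved with the comparison. Main counts are therefore also given for genes that were called the same way when cultured arrays were set against the 6 wild-type arrays before culture whose dark corner ratio lay below 0 (-1.74 to -0.38; mice 1 to 5 and 10). The array labelled mouse 10 before culture had an Xist ratio of 4.77 and an Eif2s3y ratio of -10.70, against -0.06 and 0.24 in the array labelled mouse 10 after culture, while the other 4 arrays before culture lay at 0.10 to 0.74 and at 0.08 to 0.32. Xist is expressed from the inactive X chromosome and Eif2s3y lies on the Y chromosome, so those arrays go against the label of 1 animal. The Xist difference (-2.11 ± 0.71, SE, limma adjusted p = 0.0205) was not called without that array (adjusted p = 0.0787). Mouse 6 after culture and mouse 7 before culture stood apart for several genes.

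Culture changed a large share of the transcriptome, with more falls than rises. Of 21892 genes tested, 8654 (39.5%) passed an adjusted p of 0.05, 2879 of them higher (13.2% of genes) and 5775 lower (26.4%) in cultured cells. Every list count below is to be read beside these shares. Among the calls, 7117 moved the same way in all 5 same-numbered mice, 1112 were at least 2-fold higher and 1854 at least 2-fold lower. Agreement in direction was counted only among genes called on the same arrays, so it is no further support for the calls. The same-numbered mice include mouse 10, whose arrays go against the label of a single animal. Against the low-background arrays 5030 calls held, 2149 higher (9.82% of genes) and 2881 lower (13.2%). The median difference over all genes was -0.15, and 33.3% of calls were higher, against 50.5% after median centring (4034 higher, 3962 lower), 54.3% after quantile normalization (3714 higher, 3122 lower), 46.3% with the dark corner ratio as a covariate and 45% against the low-background arrays. The balance of rises and falls thus depended on scaling and background, while none of the 138 called genes given with values turned its direction under any alternative run for single genes.

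Immediate early genes formed the deepest fall among the gene lists that describe pathways. Of 26 measured, 21 fell, 0 rose and 5 did not pass the test, with a median difference of -1.64, against -0.15 over all genes, and 20 of the falls held against the low-background arrays. Fos, the AP-1 subunit, fell furthest of all genes named: its ratios were -6.32, -7.11, -6.81, -7.04 and -7.02 in cultured cells of mice 6 to 10, against 0.97, -0.70, 1.39, 1.04 and 1.13 before culture. Every cultured array lay far below every array before culture, a difference of -7.63 ± 0.27 (SE, n = 5 per group, limma adjusted p = 7.87e-17), or 198-fold lower after culture. Jun, its partner, stood at -2.0, -4.10, -4.18, -3.88 and -3.99 after culture, against 0.86, -0.89, -0.03, 0.06 and 0.40 before. The states did not overlap, and mouse 6 after culture was the least reduced.

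Nr4a1, an orphan nuclear receptor switched on by antigen receptor signalling, had ratios of -3.30, -3.14, -3.25, -3.14 and -3.13 in cultured cells, against 1.94, -1.94, 0.82, 0.87 and 0.88 before culture. Mouse 7 before culture was low for it, and also for Fosb (-1.01, against 0.94 to 2.49 in the other 4), yet both genes stayed above all cultured arrays. The list median over its members was -1.46 to -1.22 in cultured arrays, against -0.41 in mouse 7 and 0.54 to 0.92 in the other arrays before culture. Egr1, a zinc finger factor of the same response, differed by -2.80 ± 0.24 (SE, limma adjusted p = 1.7e-09), Fosb by -4.10 ± 0.42 and Dusp1, a phosphatase that ends MAP kinase signalling, by -3.52 ± 0.27.

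Cyclic AMP response elements are a textbook route to this class of genes, and the promoters are shown for that reason. In RefSeq windows of 250 bases before to 50 after the start (GRCm38.p6), the core element TGACGT on either strand was present in 8 of 23 immediate early genes with a window (34.8%), against 9.92% of all 17195 tested genes with one. It was not the only frequent motif among those searched. EGR motifs (GCGGGGGCG or GCGTGGGCG) were present in 7 of the 23 (30.4%), against 5.47% of all genes. The E-box CACGTG was present in 6 (26.1%, against 9.24%) and the AP-1 motif TGANTCA in 0 (against 8.28%). The full cyclic AMP element TGACGTCA, which contains the core element, was present in 3 of the 23 (13%), against 2.64%. Stretches of 4 genes follow, 5′ to 3′ on the gene's strand, with the element in capitals, for the gene that fell most and for the 3 with the full element.
Fos (chr12:85473799-85473854, plus strand): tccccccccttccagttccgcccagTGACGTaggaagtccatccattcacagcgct
Dusp1 (chr17:26508583-26508688, minus strand): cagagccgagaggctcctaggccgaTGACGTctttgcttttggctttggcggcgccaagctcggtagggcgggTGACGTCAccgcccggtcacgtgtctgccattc
Maff (chr15:79347466-79347523, plus strand): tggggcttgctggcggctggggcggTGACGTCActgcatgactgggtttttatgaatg
Btg2 (chr1:134079289-134079346, minus strand): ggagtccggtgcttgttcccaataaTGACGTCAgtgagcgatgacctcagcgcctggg
The Fos core element began 66 bases before the start. Maff, a small partner of AP-1 proteins, fell (-2.30 ± 0.49, limma adjusted p = 0.000705) although mouse 6 after culture (-0.36) lay above mouse 7 before it (-1.38), whereas Btg2, an antiproliferative gene, differed by -0.21 ± 0.10 and did not pass (adjusted p = 0.108); these were shown for their sequence and chosen with their values known. The element's share was 9.94% among all genes called higher and 10.9% among all called lower, both near that of all genes.

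Feedback regulators that are induced with immediate early genes fell alongside them. Of 9 RGS proteins, which shut off G protein signalling from chemokine receptors, 6 fell and 0 rose (median -0.69). With mouse as a block or after quantile normalization 5 fell. Over all genes 26.4% fell and 13.2% rose. Rgs1 stood at -3.46, -3.63, -3.06, -3.41 and -2.96 in cultured cells, against 0.60, -1.01, 0.90, 0.57 and 1.15 before culture, with no overlap. Rgs2 and Rgs13 differed by -2.59 ± 0.24 and -2.71 ± 0.36. Of 15 NF-kB factors and feedback genes, 9 fell and 1 rose (median -0.36). With mouse as a block, with the dark corner covariate or after quantile normalization 5 fell. Rel, the c-Rel subunit used by activated B cells, had ratios of -1.5, -1.5, -1.60, -1.61 and -1.70 in cultured cells, against 1.21, 0.16, 0.10, 0.20 and -0.08 before, and its highest value belonged to mouse 6. The NF-kB regulators Nfkbid (-1.63 ± 0.24) and Nfkbiz (-1.48 ± 0.15) and the precursor Nfkb2 (-1.1 ± 0.17) fell as well. The 1 rise, Relb, was small (0.31 ± 0.11, limma adjusted p = 0.0247) and was not called without mouse 6, 7 or 8 (adjusted p = 0.0655, 0.12 and 0.0737) or with mouse as a block (0.0913).

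**Figure D1:**
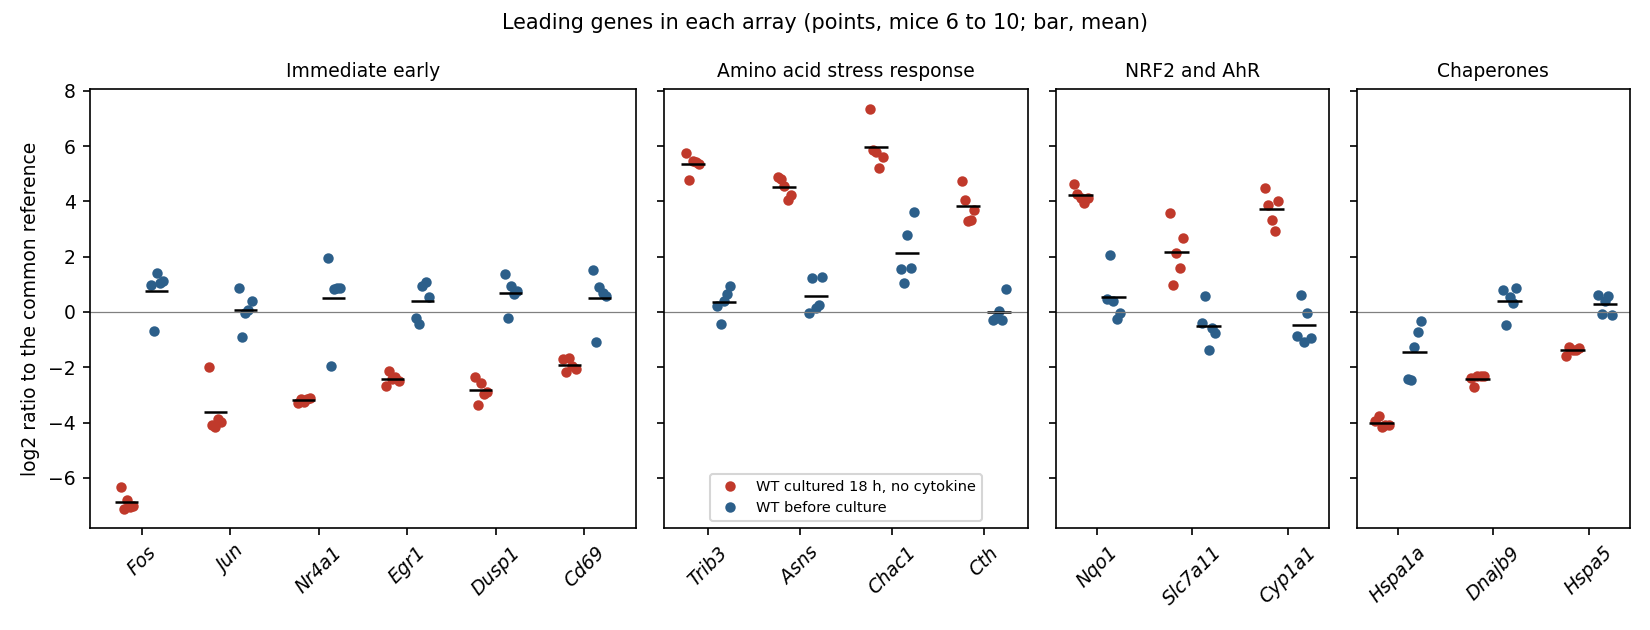
Log2 ratio to the common reference (vertical axis) of 16 genes in each wild-type array; red points are the 5 cultured arrays, blue points the 5 arrays before culture, and black bars the means. Fos lies between -7.11 and -6.32 in cultured arrays, Trib3 between 4.76 and 5.75, and the states do not overlap for any gene drawn.

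Glucocorticoid targets and quiescence factors also lay lower. Of 14 glucocorticoid targets 10 fell and 1 rose (median -0.91); Dusp1, Rgs2 and Per1 stand in this list and in others. Tsc22d3, which encodes the glucocorticoid-induced leucine zipper, stood at -2.16, -2.35, -1.64, -1.83 and -1.78 in cultured cells, against 0.76, -0.22, 0.27, -0.08 and -0.33 before. No array of one state reached the other. Of 14 quiescence and KLF factors 7 fell and 1 rose (Txnip), the falls including Btg1, an antiproliferative gene (-1.21 ± 0.15), and Klf2, which keeps lymphocytes quiescent and recirculating. Klf2 ratios were -2.44, -1.14, -1.23, -1.17 and -1.03 after culture, against 0.56, -0.62, -0.02, -0.18 and -0.48 before (limma adjusted p = 0.000898, and 0.0505 with mouse as a block). The clock repressors Per1 (-1.07 ± 0.23, limma adjusted p = 0.0626 with mouse as a block and mouse 10 left out), Per2 (-1.05 ± 0.18) and Bhlhe40 (-1.12 ± 0.22) were the 3 falls among 16 clock genes, of which 1 rose (Dbp). Both clock counts were below the shares over all genes (26.4% lower, 13.2% higher).

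Genes of the amino acid stress response rose. Of 25 measured ATF4 targets 16 rose, 1 fell and 8 did not pass, with a median of 1.05, and all 16 rises held against the low-background arrays. Trib3, a pseudokinase induced by ATF4, stood at 5.75, 4.76, 5.45, 5.43 and 5.36 in cultured cells, against 0.22, -0.43, 0.41, 0.63 and 0.93 before culture. That separation of all arrays gave a difference of 5.00 ± 0.19 (SE, n = 5 per group, limma adjusted p = 1.56e-16), or 31.9-fold higher after culture.

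Asns, asparagine synthetase, had ratios of 4.89, 4.8, 4.54, 4.03 and 4.24 in cultured cells, against -0.05, 1.22, 0.13, 0.26 and 1.25 before. Cth, which makes cysteine from cystathionine, differed by 3.81 ± 0.31 and Chac1, which degrades glutathione, by 3.82 ± 0.44; Chac1 was not called after quantile normalization (adjusted p = 0.0795). Serine and transport enzymes of the list were among the rises. The 1 fall was Ppp1r15a, the phosphatase subunit that ends the response, at -1.47, -1.82, -1.76, -1.65 and -1.73 after culture, against 1.86, -0.99, 0.37, 0.36 and 0.59 before. The mRNAs of Atf4 itself, which is governed mainly by translation (0.11 ± 0.16, limma adjusted p = 0.627), and of Ddit3, its partner CHOP (0.46 ± 0.20, adjusted p = 0.0664), did not pass the test. These 3 genes were named after their values were seen.

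Antioxidant genes moved up with them. Of 20 measured NRF2 targets 15 rose and 2 fell (median 1.07), and 14 of the rises held. Nqo1, a quinone reductase, had ratios of 4.64, 4.26, 4.12, 3.95 and 4.12 in cultured cells, against 0.47, 2.06, 0.40, -0.26 and -0.04 before culture. All cultured arrays were above all arrays before it, and mouse 7 was the highest before culture. Txnrd1, thioredoxin reductase, differed by 1.85 ± 0.14, Cat, catalase, by 1.71 ± 0.23, and Sqstm1, an autophagy adaptor, by 1.46 ± 0.34 (adjusted p = 0.0684 with the dark corner covariate). Slc7a11, the cystine transporter shared with the ATF4 list, varied widely, at 3.57, 0.96, 2.13, 1.58 and 2.68 after culture against -0.39, 0.57, -1.36, -0.58 and -0.75 before, and its call (adjusted p = 0.0243) was lost without mouse 6, 8, 9 or 10 (adjusted p = 0.0505 to 0.0934). Mouse 6 after culture had the highest list median, 2.09, against 0.74 to 1.1 in the other cultured arrays and 0.09 to 0.28 before culture; 12 members rose without that mouse.

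The 2 falls were the metallothioneins Mt2 (-0.86 ± 0.14) and Mt1 (-0.64 ± 0.24), which bind zinc; Mt1 was not called without mouse 7, 8 or 10 (adjusted p = 0.0989, 0.0577 and 0.127). Cyp1a1, a cytochrome induced by the aryl hydrocarbon receptor, rose: 4.47, 3.86, 3.34, 2.92 and 4.02 in cultured cells, against -0.88, 0.60, -1.08, -0.05 and -0.96 before culture. The receptor Ahr (-0.96 ± 0.13) and its partner Arnt (-0.87 ± 0.12) fell. Of the 9 genes of that list 3 rose, Cyp1a1 and 2 also counted with NRF2, and 3 fell.

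Chaperones of the endoplasmic reticulum and the cytosol fell. In the reticulum 14 of 20 folding genes fell and 1 rose (median -0.73), and 12 of the falls held. Dnajb9, a co-chaperone of BiP, stood at -2.40, -2.71, -2.31, -2.31 and -2.32 in cultured cells, against 0.80, -0.48, 0.54, 0.32 and 0.86 before culture. Hspa5, which encodes BiP, had ratios of -1.61, -1.27, -1.37, -1.39 and -1.29, against 0.62, -0.09, 0.38, 0.57 and -0.12 before. Neither gene's states overlapped. Pdia4, a disulfide isomerase, and Sdf2l1, a BiP cofactor, differed by -1.52 ± 0.16 and -1.40 ± 0.13, while Herpud1, which serves degradation from the reticulum, rose by 0.52 ± 0.10.

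Of 15 heat shock chaperones 11 fell and 1 rose (median -0.90), 8 of the falls held, and 6 fell after quantile normalization. Hspa1a, an inducible HSP70 gene with a near-identical neighbouring copy that its probe may not tell apart, stood at -3.94, -3.76, -4.16, -4.10 and -4.09 in cultured cells, against -2.41, -2.45, -1.27, -0.73 and -0.32 before. The cultured arrays lay close together and below a wide spread before culture; the call was lost after quantile normalization (-0.75, adjusted p = 0.478). The J-domain co-chaperones Dnajb4 and Dnaja1 differed by -1.60 ± 0.24 and -1.28 ± 0.19, and Hsph1, an HSP110 protein, by -1.35 ± 0.34 (not called after quantile normalization, -0.93, or with the covariate, -0.67). The rise, Cryab, a small heat shock protein, was 0.49 ± 0.17 and was lost without mouse 6, 7 or 8 (adjusted p = 0.187, 0.0513 and 0.148) and with mouse as a block (0.145).

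Promoters of these genes share elements known from their regulation. The heat shock motif GAANNTTC was present in 8 of 12 chaperone genes with a window (66.7%), against 8.22% of all genes. The CCAAT box, read on both strands, was present in 17 of 18 folding genes (94.4%) and in 16 of 17 sterol and fatty acid genes (94.1%), against 42.0%. Stretches of 3 heat shock genes, 2 folding genes and 1 sterol gene are given, with the motif in capitals.
Hspa1a (chr17:34972228-34972285, minus strand): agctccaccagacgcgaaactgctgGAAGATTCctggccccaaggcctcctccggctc
Dnaja1 (chr4:40722319-40722376, plus strand): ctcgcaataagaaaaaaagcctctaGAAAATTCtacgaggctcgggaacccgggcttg
Hspe1 (chr1:55088039-55088096, plus strand): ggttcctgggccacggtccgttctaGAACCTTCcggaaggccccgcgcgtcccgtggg
Hspa5 (chr2:34771851-34772054, plus strand): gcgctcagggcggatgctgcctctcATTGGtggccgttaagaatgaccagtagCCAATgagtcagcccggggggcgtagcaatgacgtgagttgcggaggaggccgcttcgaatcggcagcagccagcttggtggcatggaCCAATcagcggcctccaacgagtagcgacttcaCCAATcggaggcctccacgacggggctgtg
Dnajb9 (chr12:44210104-44210158, minus strand): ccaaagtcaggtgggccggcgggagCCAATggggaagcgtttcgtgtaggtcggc
Msmo1 (chr8:64733604-64733763, minus strand): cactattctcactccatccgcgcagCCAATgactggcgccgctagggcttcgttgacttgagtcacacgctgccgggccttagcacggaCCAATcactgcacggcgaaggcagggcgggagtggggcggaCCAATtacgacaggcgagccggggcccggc
Hspa5 and Msmo1 held 4 and 3 CCAAT boxes in these stretches. Hspe1, a mitochondrial chaperonin chosen for its sequence, differed by -0.51 ± 0.11 (limma adjusted p = 0.00111) and was not called against the low-background arrays (adjusted p = 0.0569). The element's share was 41.6% among all genes called higher and 43.0% among all called lower.

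Of 23 sterol and fatty acid genes 9 rose and 4 fell (median 0.22), and all these calls held. Sqle, squalene epoxidase, stood at 1.07, 1.16, 1.08, 1.34 and 1.26 in cultured cells, against 0.13, -0.38, -0.30, -0.46 and -0.57 before culture. Msmo1, a later sterol demethylase, differed by 1.5 ± 0.10 (limma adjusted p = 4.94e-11). The states separated for both. The desaturases Scd1 (-1.24 ± 0.18) and Scd2 (-1.98 ± 0.34) fell. Of 7 LXR-driven cholesterol efflux genes 2 fell, the exporters Abcg1 (-3.42 ± 0.51) and Abca1 (-1.45 ± 0.33), 1 rose, the lipid carrier Apoe (1.81 ± 0.23), and 4 were not called. These counts were near the shares over all genes (26.4% lower, 13.2% higher).

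Of 25 glycolysis and hypoxia genes 5 rose and 7 fell (median -0.19), near the shares over all genes (13.2% higher, 26.4% lower). With mouse as a block 3 rose and 2 fell, and with the covariate 5 rose and 2 fell. Vegfa, an angiogenic factor, had ratios of 3.18, 2.57, 2.59, 2.42 and 2.46 in cultured cells, against 0.55, -0.15, 0.11, -0.02 and 0.61 before. The aldolases Aldoa (1.32 ± 0.14) and Aldoc (1.62 ± 0.12) rose and Ankrd37, a hypoxia marker, fell (-1.51 ± 0.14). Of 21 autophagy and lysosome genes 7 rose and 6 fell, against 7 and 2 after quantile normalization and 7 and 3 without mouse 6. The 7 rises exceeded the share over all genes (13.2%), and the 6 falls were near it (26.4%). Gabarapl1, which builds autophagosomes, rose (1.60 ± 0.16).

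**Figure D2:**
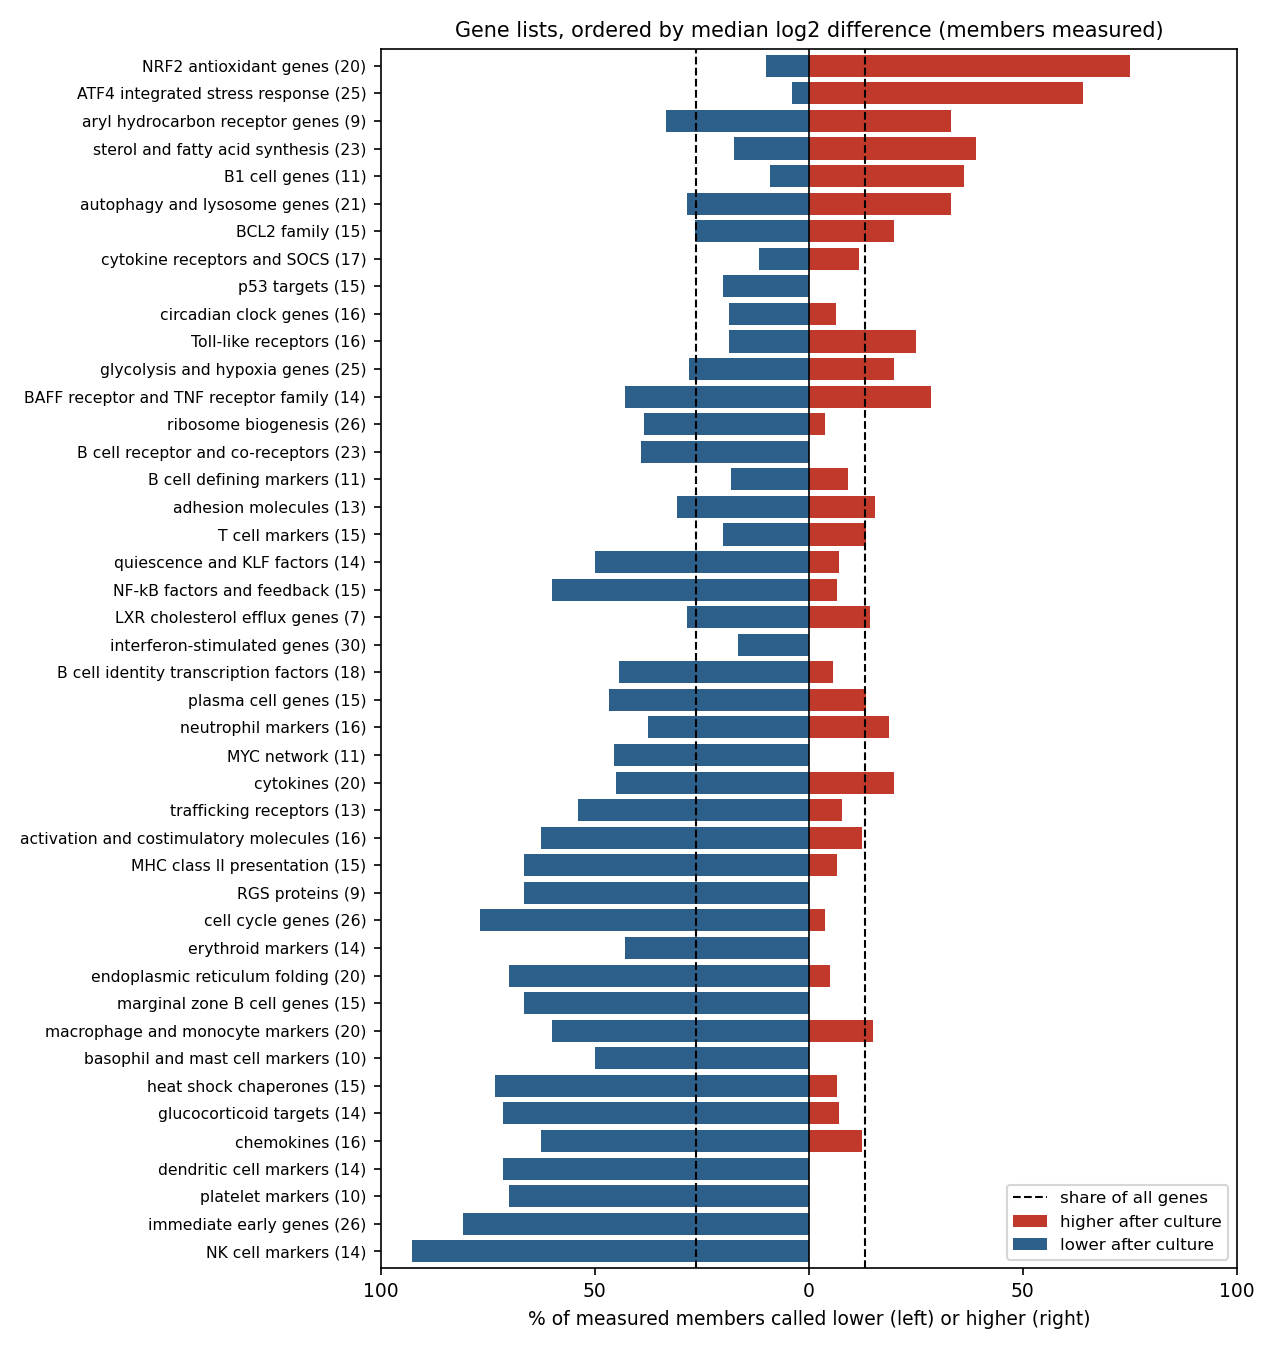
Share of each list's measured members (number in brackets) called lower (blue, left) or higher (red, right) in cultured cells, with lists ordered by median log2 difference. Dashed lines mark the shares over all genes, 26.4% lower and 13.2% higher. Of 14 NK cell markers 13 were called lower, and of 20 NRF2 genes 15 were called higher.

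Growth and division genes were lower after culture. Myc stood at -1.82, -1.92, -1.97, -2.02 and -2.13 in cultured cells, against 1.25, -0.33, 0.87, 0.71 and 0.67 before culture (difference -2.61 ± 0.18, limma adjusted p = 4.33e-11). No cultured array reached the lowest array before culture, which was mouse 7. Its partner Max fell by 0.61 on the log2 scale (-0.18 and not called after quantile normalization), and 5 of 11 genes of the MYC network fell, against 1 after quantile normalization. Of 26 ribosome biogenesis genes 10 fell and 1 rose (median -0.21), a count that went to 4 falls with mouse as a block and 1 after quantile normalization. In the main fit 26.4% of all genes fell and 13.2% rose. The helicase Ddx21 (-0.52 ± 0.08) and the methyltransferase Fbl (-0.42 ± 0.08) fell, and neither was called after quantile normalization (adjusted p = 0.0554 and 0.0526).

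Of 26 cell cycle genes 20 fell and 1 rose (median -0.72), and 18 of the falls held. Ccnd1, cyclin D1, had ratios of -2.74, -2.42, -2.39, -2.70 and -2.44 in cultured cells, against 0.02, 0.41, 0.64, 0.30 and 0.99 before. Cdk1, the mitotic kinase, stood at -1.94, -1.08, -1.42, -1.32 and -1.53, against 0.24, 0.87, 0.42, 0.42 and 0.88 before. Bub1, a spindle checkpoint kinase, differed by -3.08 ± 0.44. The states were apart for all 3 genes.

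Of 15 BCL2 family members 3 rose and 4 fell (median -0.02), near the shares over all genes (13.2% higher, 26.4% lower). Bcl2, which protects resting lymphocytes, stood at -1.96, -0.97, -1.38, -0.72 and -0.91 in cultured cells, against 0.09, 0.43, 0.20, 0.38 and -0.29 before culture. Among its BH3-only antagonists, Bbc3 (PUMA) stood at 2.98, 2.28, 2.71, 2.67 and 2.79, against 1.12, 0.18, 0.59, 0.91 and 0.93 before. Bcl2 and Bbc3 were separated between the states in opposite directions. Bmf differed by 1.11 ± 0.19, with mouse 6 after culture (0.38) inside the range before culture (-0.47 to 0.66), and was not called with mouse as a block and mouse 10 left out (adjusted p = 0.0734). Pmaip1 (NOXA) fell (-2.41 ± 0.33). Of 15 p53 targets Gtse1, Perp and Mdm2 fell and 0 rose, and 1 fell with the covariate or against the low-background arrays. Mdm2, the p53 ligase, differed by -0.34 ± 0.08 (adjusted p = 0.00182, and 0.0825 with mouse as a block). Of 14 BAFF and TNF receptor genes 4 rose and 6 fell, against 4 and 3 after quantile normalization.

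Of 23 genes of the B cell receptor and its co-receptors 9 fell and 0 rose (median -0.27), against 26.4% lower and 13.2% higher over all genes. With the covariate 5 fell and 3 rose (median -0.00), after quantile normalization 6 fell and 3 rose (median -0.02), and with mouse as a block 6 fell. Cr2, the complement receptor CD21, stood at -2.54, -2.37, -2.31, -2.11 and -2.37 in cultured cells, against -0.09, -0.20, 0.24, 0.20 and -0.58 before culture. The proximal kinase Syk (-1.08 ± 0.12) and the phosphatase Ptprc (CD45, -0.81 ± 0.16) fell less, and Malt1, which links the receptor to NF-kB, differed by -0.93 ± 0.21 (adjusted p = 0.0012, and 0.0712 with mouse as a block). Of 15 MHC class II genes 10 fell and 1 rose (median -0.62), and 11 of 11 calls held; 7 fell with mouse as a block and 6 after quantile normalization. Cd74, the invariant chain, had ratios of -1.31, -0.69, -0.86, -0.84 and -0.89 in cultured cells, against 0.34, 0.10, 0.18, 0.40 and -0.43 before. Its states did not overlap, and mouse 6 was the lowest after culture. The peptide exchange chains H2-DMb1 (-1.24 ± 0.16) and H2-DMb2 (-1.25 ± 0.26; not called with the covariate, adjusted p = 0.0738) are close paralogs that probes may not fully separate. The rise was Marchf1, a ubiquitin ligase that removes MHC class II from the surface (1.74 ± 0.22).

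Transcription factors of B cell identity fell in 8 of 18 cases and rose in 1 (median -0.41), against 26.4% lower and 13.2% higher over all genes. The falls numbered 5 with mouse as a block, after quantile normalization or without mouse 6 (median -0.24), and 4 with the covariate (median -0.10). Id3, an inhibitor of E proteins, rose: 1.09, 1.43, 1.47, 1.32 and 1.28 in cultured cells, against -1.34, -0.18, -0.39, -0.50 and -0.16 before culture, where mouse 6 was lowest. Ikzf1, which encodes Ikaros, and Spib, an ETS factor, fell by 0.85 each on the log2 scale. Of 15 marginal zone genes, which mark the innate-like B cells at the edge of the follicle, 10 fell and 0 rose (median -0.86), all 10 holding. Hes1, a target of the Notch signal these cells need, stood at -3.29, -3.02, -3.09, -3.17 and -3.24 in cultured cells, against 0.63, -0.68, 0.76, 0.39 and 0.42 before. S1pr3, a sphingosine phosphate receptor, and Asb2, a ubiquitin ligase subunit, differed by -1.97 ± 0.18 and -2.29 ± 0.23. Of 15 plasma cell genes 7 fell and 2 rose: Tnfrsf17, the receptor BCMA, fell (-3.60 ± 0.47), as did Jchain, which joins secreted antibody (-1.54 ± 0.25), and Prdm1, which encodes Blimp-1, rose (1.28 ± 0.24).

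Surface molecules of activation fell more often than they rose. Of 16 measured 10 fell and 2 rose (median -0.61), against 6 and 2 after quantile normalization. Cd69, an early activation antigen that retains lymphocytes in tissue, stood at -1.70, -2.18, -1.67, -1.95 and -2.06 in cultured cells, against 1.51, -1.09, 0.90, 0.68 and 0.59 before culture. Cd83 differed by -1.34 ± 0.25, and for both genes mouse 7 was the lowest array before culture. Slamf1, a co-receptor, fell (-1.95 ± 0.27), whereas Il2ra, the IL-2 receptor alpha chain, had ratios of 2.44, 2.52, 2.35, 1.97 and 2.37 in cultured cells, against -0.23, 0.95, 0.10, -0.11 and -0.22 before.

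Of 13 trafficking receptors 7 fell and 1 rose (median -0.60), including S1pr2 (-1.76 ± 0.44), which confines B cells to follicle centres. Cxcr4, the CXCL12 receptor, stood at 0.36, -1.1, -0.72, -1.23 and -1.09 after culture, against 0.57, -0.26, 1.11, 0.69 and 0.36 before; the groups overlapped and the call was lost against the low-background arrays (-0.71, adjusted p = 0.0853). Of 13 adhesion genes 2 rose, Alcam (2.51 ± 0.25) and Itgam (CD11b, 1.14 ± 0.15), and 4 fell, Itga4 (-0.81 ± 0.16) most. Both adhesion counts were near the shares over all genes (13.2% higher, 26.4% lower). The falls numbered 2 with mouse as a block or the covariate, and 7 without mouse 10. Dock10, the gene deleted in the knockout mice, had ratios of -0.89, -0.62, -0.37, -0.36 and -0.64 in cultured cells, against 0.62, 0.36, 0.45, 0.27 and -0.24 before. Ratios this near 0 before culture mean a similar signal from the reference pool, which was itself of knockout cells. What the Dock10 signal reads was not tested.

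Secreted factors included 1 of the largest rises of the comparison. Il6, an inflammatory cytokine that B cells can release, stood at 7.54, 4.78, 5.96, 5.89 and 6.75 in cultured cells, against 0.91, 0.52, 1.2, 2.22 and 1.82 before culture (difference 4.85 ± 0.57, limma adjusted p = 4.01e-07). The states were far apart. Of 20 cytokines 4 rose and 9 fell, among the falls Lta, lymphotoxin alpha (-1.79 ± 0.14), and Il15 (-1.57 ± 0.30). Of 16 chemokines 2 rose (Ccl2 and Cxcl16) and 10 fell (median -0.99), led by Ppbp, a platelet chemokine (-4.19 ± 0.79), Ccl6 (-3.98 ± 0.39), Xcl1 (-3.48 ± 0.48) and the interferon-induced Cxcl9 (-2.68 ± 0.28). Of 16 Toll-like receptor genes 4 rose and 3 fell, against 2 and 2 with the covariate and 3 and 1 against the low-background arrays. Over all genes 13.2% rose and 26.4% fell. Tlr3, a sensor of double-stranded RNA, had ratios of -3.50, -3.05, -2.53, -2.47 and -2.18 in cultured cells, against 0.88, 0.97, 1.33, 1.18 and -0.13 before.

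Interferon-stimulated genes mostly did not pass the test: 5 of 30 fell, below the share over all genes (26.4%), and 25 were not called (median -0.40). Their median was -1.32 in mouse 6 after culture and -0.32 to 0.44 in the other cultured arrays, against -0.35 to 0.27 before culture. Without mouse 6 the falls numbered 2, after quantile normalization 3 fell and 3 rose, and against the low-background arrays 8 fell and 1 rose. Isg15, a ubiquitin-like antiviral protein, differed by -1.19 ± 0.26 (limma adjusted p = 0.000883). Cmpk2, a mitochondrial nucleotide kinase, stood at -3.58, -0.26, -1.35, -1.22 and -1.32 in cultured cells, against -0.54, 0.47, -0.25, -0.76 and -0.42 before; its call was lost without mouse 6 (-0.80, adjusted p = 0.119) or mouse 8 (-1.28, 0.0553) and with mouse as a block (0.0516).

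Markers of other spleen cells that a negative selection may leave behind fell in the cultured state. Of 14 NK cell markers 13 fell and 0 rose (median -2.2), of 14 dendritic cell markers 10 fell and 0 rose (median -1.2), of 10 platelet markers 7 fell and 0 rose (median -1.49), and of 20 macrophage and monocyte markers 12 fell and 3 rose (median -0.86). All these falls held against the low-background arrays. The dendritic cell falls numbered 7 with mouse as a block, with the dark corner covariate or without mouse 10. Clec9a, a receptor of cross-presenting dendritic cells, stood at -4.82, -4.18, -4.72, -4.81 and -4.12 in cultured cells, against -0.25, 0.88, 0.67, -0.24 and 0.97 before culture. The dendritic cell genes Xcr1 and Itgax differed by -3.64 ± 0.41 and -3.38 ± 0.17, the macrophage genes Mrc1, C1qc and Axl by -4.28 ± 0.50, -4.11 ± 0.29 and -3.59 ± 0.35, and the granzymes Gzma and Gzmb by -3.20 ± 0.42 and -3.21 ± 0.37.

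Not all marker lists moved together. Of 15 T cell markers 3 fell and 2 rose, near the shares over all genes (26.4% lower, 13.2% higher), with Cd8a lower (-1.92 ± 0.38). With mouse as a block 5 fell and 1 rose, with the covariate 4 fell and 0 rose, and after quantile normalization 1 fell and 2 rose. Of 14 erythroid markers 6 fell, of 10 basophil and mast cell markers 5 fell (2 after quantile normalization, 3 with the covariate or without mouse 6), and none of either list rose. Of 16 neutrophil markers 6 fell and 3 rose; their median was -0.38 to 0.38 in cultured arrays, against 1.90 in mouse 10 and 0.07 to 0.27 in the other arrays before culture, and without mouse 10 the counts were 4 and 4, with the covariate 9 and 0. S100a9, a neutrophil calcium-binding protein, stood at -2.61, -2.07, -0.94, -0.74 and -0.83 after culture, against 0.96, -0.36, 0.70, 1.11 and 3.46 before. Macrophage markers that went the other way were chosen after their values were seen: Adgre1 rose by 2.39 ± 0.20 and Marco, a scavenger receptor, by 2.11 ± 0.26, with all cultured arrays above all arrays before culture. How far losses or gains of other cells took part in the results above was not tested.

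**Figure D3:**
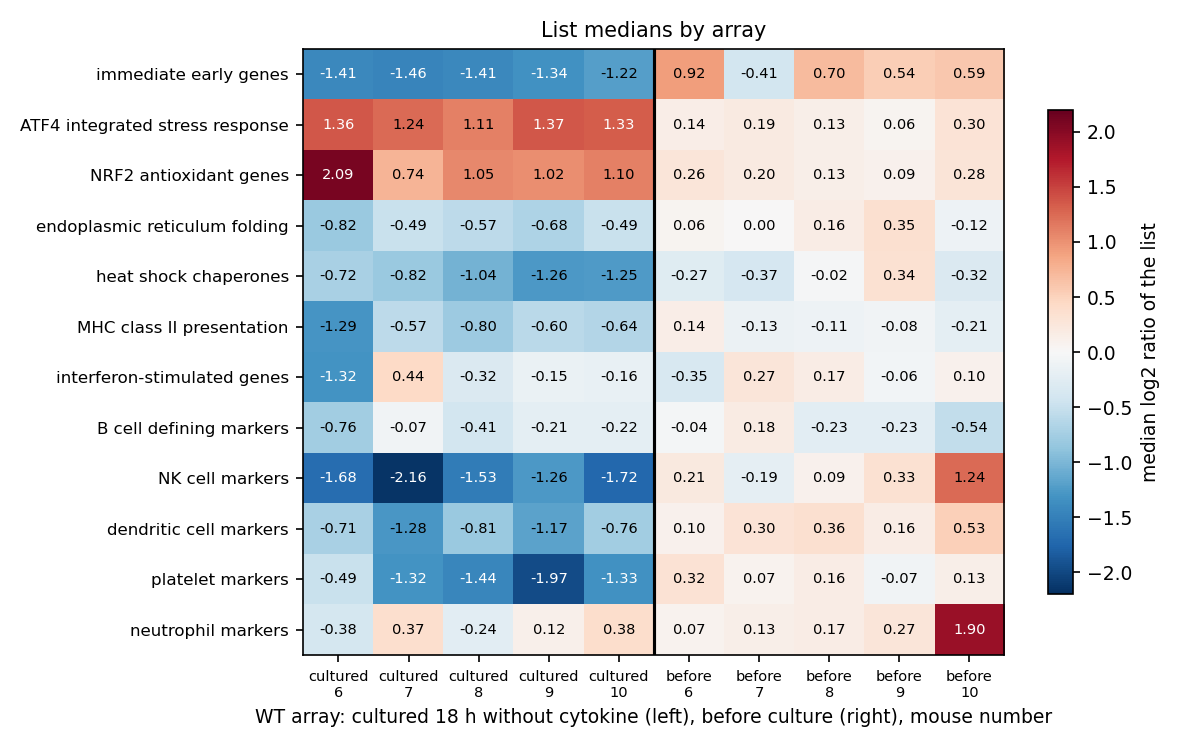
Median log2 ratio of 12 gene lists in each wild-type array, printed in each cell and coloured from blue (low) to red (high); cultured arrays of mice 6 to 10 stand left of the line and arrays before culture right of it. Immediate early genes are lowest before culture in mouse 7 (-0.41), neutrophil markers highest in mouse 10 before culture (1.90), and NRF2 genes highest in cultured mouse 6 (2.09).

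The largest rises by the naming rule lay mostly outside the pathways listed. Rnase10, a ribonuclease family gene known from the epididymis, stood at 7.86, 7.14, 6.74, 6.00 and 6.36 in cultured cells, against 1.16, 0.90, 0.34, 0.94 and 0.87 before culture, a difference of 5.98 ± 0.61 (limma adjusted p = 4.1e-08). Genes known from skeleton, cilia, skin, muscle or brain followed: Dlx5 (4.56 ± 0.70), Dnah2 (4.54 ± 0.49), Ctxn2 (4.52 ± 0.67), Krt79 (3.85 ± 0.45), Cox6a2 (3.84 ± 0.18) and Cbln2 (3.83 ± 0.47), with Zfp580 (4.13 ± 0.44) and Pdzrn3 (3.87 ± 0.45). Each separated all cultured arrays from all arrays before culture. Since the genes were picked as the largest called differences with 1 sign in all 5 mice, that separation is no further support. Each held against the low-background arrays, a comparison that shares the cultured arrays and mouse 10 before culture. The deposited ratios carry no detection flag, so how far the reference spot of such genes lay above background was not tested.

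Among the largest falls, Tsga13, known from testis, stood at -4.44, -3.87, -4.68, -4.89 and -4.79 in cultured cells, against 0.26, -1.2, 0.67, 0.36 and 0.56 before culture. Mycl, a MYC paralog used by dendritic cells, differed by -4.38 ± 0.32. Itgad (-4.55 ± 0.45), Adgre4 (-4.50 ± 0.45), Sirpb1b (-4.48 ± 0.36), Fcna (-4.31 ± 0.40) and Havcr2 (-4.23 ± 0.26) are known from myeloid cells, and Fn1, fibronectin, fell by 4.37 on the log2 scale. None of these overlapped between the states, which their choice as the largest differences made likely.

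The culture effect of wild-type cells was tested against that of Dock10 knockout cells cultured and sampled in the same way. It differed for 1462 genes (6.68% of 21892), 977 with a more positive and 485 with a more negative difference in wild type. With mouse within genotype as a block 769 genes passed, and 234 when mice 10 were also left out. Quantile normalization left 359, the dark corner covariate gave 1682 and low-background arrays before culture gave 1853. Dark corner ratios of cultured arrays were -1.79 to -0.72 in knockout cells and -1.29 to -0.82 in wild type. Before culture, mice 6 to 9 had 0.72 to 1.08 in knockout and 0.14 to 0.68 in wild type. The culture test called 11155 genes in knockout cells and 8654 in wild type. How far background or scale entered the genotype difference was not tested. Among interferon-stimulated genes 25 of 30 had a more positive difference in wild type and 0 a more negative one, with a median culture difference of -0.40 in wild type and -1.85 in knockout cells. Rtp4, a receptor transporter induced by interferon, differed by 0.19 after culture in wild type and by -3.13 in knockout cells (difference between them 3.31 ± 0.67, SE, limma adjusted p = 0.000355). Mx1, an antiviral GTPase, Cmpk2 and Ifit1bl1 had genotype differences of 3.22, 3.20 and 3.26, and Itih5, a matrix protein, of 4.22.

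In the other direction, Hpgds, which makes prostaglandin D2, changed by -0.26 in wild type and by 3.23 in knockout cells. Cables1 (1.19 in wild type, 4.48 in knockout), the costimulatory receptor Cd28 (0.16 in wild type, 3.31 in knockout), Serpinb2 (-2.80 in wild type, 0.34 in knockout) and Hbb-b1, a beta globin (-0.17 in wild type, 2.89 in knockout), had genotype differences of -3.29, -3.15, -3.14 and -3.06. Of the ATF4 targets 11 of 25 had a more negative difference in wild type, Trib3 among them (5.00 in wild type, 5.93 in knockout), and so did 5 of 26 immediate early genes, including Egr1 (-2.80 in wild type, -0.68 in knockout). Serpinb2 was not called without the 2 wild-type arrays of mouse 7 (adjusted p = 0.0617). With mouse as a block and mice 10 left out, Serpinb2, Cables1, Hbb-b1 and Egr1 were not called (adjusted p = 0.0761, 0.0909, 0.14 and 0.0569). Of the B cell receptor genes 9 of 23 had a more positive difference in wild type and 0 a more negative one. Wild-type mouse 6 after culture lay apart from the other 4 wild-type arrays for Rtp4 (-1.69, against -0.01 to 0.86) and for Hbb-b1 (2.39, against -0.52 to -0.13).

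**Figure D4:**
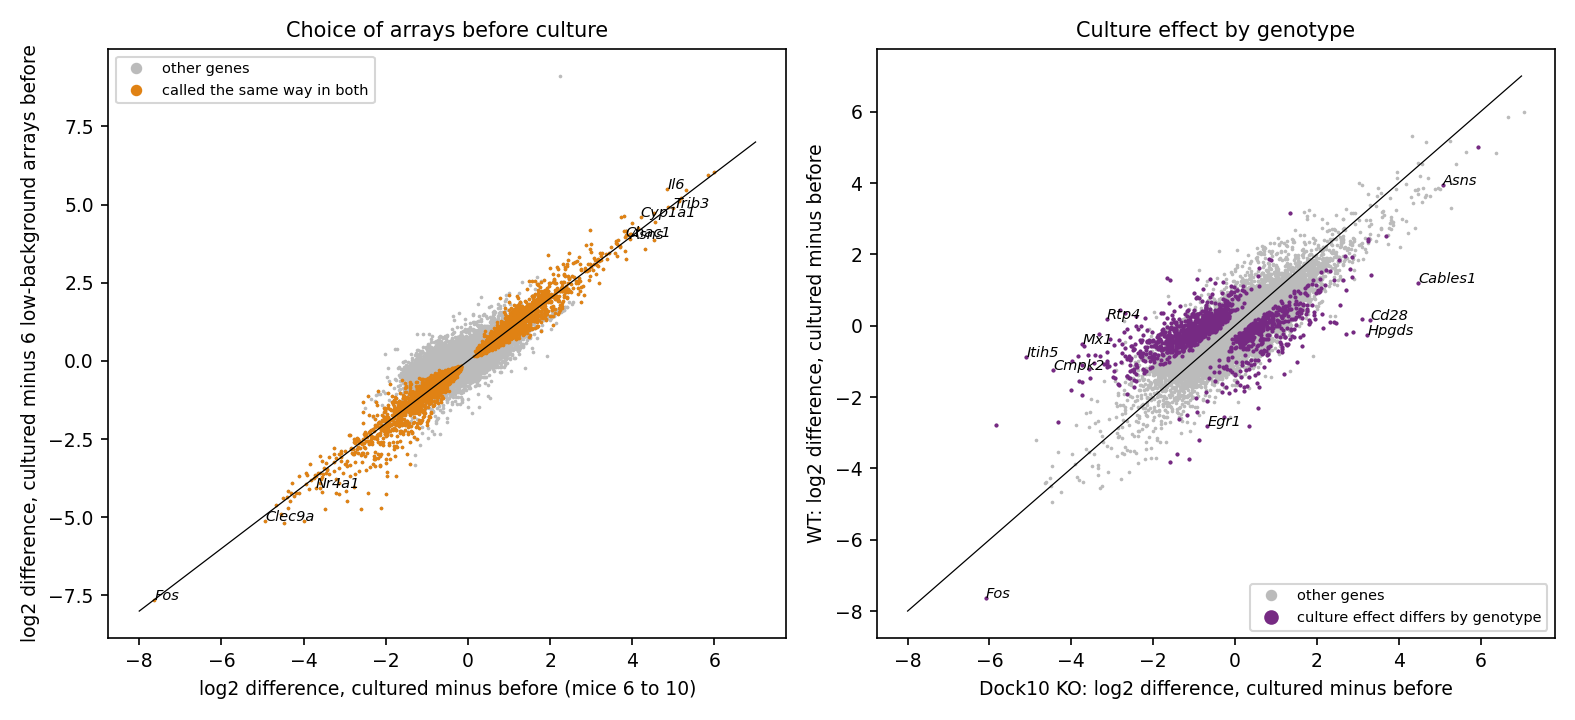
Left, the log2 difference of every gene between cultured wild-type cells and the 5 same-numbered mice before culture (horizontal) against that with the 6 low-background arrays before culture (vertical); the 5030 genes called the same way in both are orange. Right, the culture difference in knockout cells (horizontal) against that in wild-type cells (vertical), with the 1462 genes whose culture effect differed by genotype in purple; solid lines mark equal values.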

How the data were processed

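The authors deposited a table of log2 ratios of 39485 probes on 40 two-colour Agilent arrays, scanned with Agilent Feature Extraction 11.0.1.1 per the submitters' processing notes. Each deposited log2 ratio sets Cy5 (a mouse) over Cy3 (the common reference) by the dyes in the labels. How the table was centred is not given in the sources used here, and no signal level or detection call was used. Control probes (56) and 8804 probes without a symbol were left out. Probes were averaged per gene, giving 21892 genes, 6807 of them with several probes. Of 30625 named probes 30331 matched RefSeq and 294 kept their name.

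The main test was limma 3.58.1 in R 4.3.3 on 30 arrays of mice 6 to 10 in 6 groups, without a block, with Benjamini-Hochberg adjustment over all genes and a call at 0.05. The labels number the same animals before and after culture. Residuals of same-numbered arrays correlated at 0.0195, 0.1487, 0.1025, 0.001 and -0.1088 for mice 6 to 10, so mouse as a block was an alternative. That fit used only the 10 wild-type arrays compared, which gave 7873 calls without the block and 6724 with it. A call lost with the block may thus rest on the smaller set of arrays as well. The block pairs the arrays labelled mouse 10, which go against the label of 1 animal. With mouse 10 left out, the block gave 8797 calls. For the genotype difference the block fit used the 4 groups without IL-4. On simulated data for this comparison over 21892 genes, 59 of 100 genes changed by 1 and 28 of 100 changed by 0.5 (log2) were recovered, with 2 false among 89 calls. Only these genes were changed, and noise was independent between genes. In the data 39.5% of genes were called, so these rates may not hold for the real comparison. Alternatives were other scalings, filters, weights and left-out mice. The sets of arrays chosen by dark corner ratio, the use of all 10 mice before culture, and leaving out mice 6 and 10 together, were added after seeing the data.

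Genes named were drawn from the 15 largest called differences per direction with 1 sign in all 5 mice, the 4 largest called members of each of 44 lists (728 genes measured), the 5 largest genotype differences per direction and a short set of B cell genes, leaving out clones and predicted genes. Relb, Ppp1r15a, Atf4, Ddit3, Mt1, Mt2, Herpud1, Cryab, Adgre1, Marco, Btg2, Maff, Hspe1, and genes named without a value, were chosen after their values were seen. The comparison, lists and tests were chosen with earlier results of these data known. Promoter windows came from RefSeq. The results of 1 further list are not reported here.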

Additional observations from a re-analysis of the deposited data

Results flagged for a closer look

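Of 378 sets of 5 arrays tested, 36 had 1 array whose gap to its nearest neighbour exceeded 0.71 of the whole range, the value that chance passes in about 1 in 20 sets. Mouse 6 after culture stood apart from the other 4 arrays with Jun at -2.0 against -4.18 to -3.88, Klf2 at -2.44 against -1.23 to -1.03, Scd1 at -1.75 against -1.02 to -0.85 and Vegfa at 3.18 against 2.42 to 2.59. It also had Aldoa at 1.45 against 0.69 to 0.83, Ikzf1 at -1.05 against -0.64 to -0.49, H2-DMb1 at -1.81 against -1.23 to -1.02 and Bmf at 0.38 against 1.16 to 1.45. It also had Sqstm1 at 1.98 against 0.78 to 1.11, Mrc1 at -4.51 against -2.87 to -2.32, the median of RGS proteins at -1.53 against -0.76 to -0.56 and the median of ribosome biogenesis at -0.00 against -0.22 to -0.17. It also had the median of NRF2 antioxidant genes at 2.09 against 0.74 to 1.1. Mouse 7 after culture stood apart from the other 4 arrays with Dnajb9 at -2.71 against -2.40 to -2.31, Pmaip1 at -2.76 against -2.01 to -1.82 and Adgre1 at 3.62 against 2.33 to 2.68. Mouse 6 before culture stood apart from the other 4 arrays with Rel at 1.21 against -0.08 to 0.20, Id3 at -1.34 against -0.50 to -0.16 and Isg15 at 0.02 against 0.58 to 0.76. Mouse 7 before culture stood apart from the other 4 arrays with Fos at -0.70 against 0.97 to 1.39, Nr4a1 at -1.94 against 0.82 to 1.94, Rgs1 at -1.01 against 0.57 to 1.15 and Il2ra at 0.95 against -0.23 to 0.10. It also had Hes1 at -0.68 against 0.39 to 0.76, Pmaip1 at -1.62 against 0.47 to 1.14, Tsga13 at -1.2 against 0.26 to 0.67 and the median of immediate early genes at -0.41 against 0.54 to 0.92. Mouse 8 before culture stood apart from the other 4 arrays with Herpud1 at -0.09 against -0.17 to -0.15. Mouse 9 before culture stood apart from the other 4 arrays with Ctxn2 at 1.14 against 0.09 to 0.36. Mouse 10 before culture stood apart from the other 4 arrays with Cat at -0.19 against 0.25 to 0.37, Ankrd37 at 0.04 against -0.46 to -0.34, Xist at 4.77 against 0.10 to 0.74 and Eif2s3y at -10.70 against 0.08 to 0.32. It also had the median of glycolysis and hypoxia genes at -0.03 against 0.11 to 0.16, the median of B1 cell genes at 0.92 against 0.20 to 0.37 and the median of neutrophil markers at 1.90 against 0.07 to 0.27.

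The culture effect differed between wild-type and knockout cells, tested as an interaction in limma with adjustment over all genes, for 44 of the genes described. The log2 difference was more positive in wild type for Aldoc (1.02), Id3 (0.94), Spib (1.18), Ikzf1 (0.45), H2-DMb1 (0.99), Slamf1 (1.79), Itga4 (1.07), Bmf (1.22), Cmpk2 (3.20) and Cd79a (0.79). It was also more positive for Ms4a1 (1.54), Itih5 (4.22), Rtp4 (3.31), Mx1 (3.22) and Ifit1bl1 (3.26). The log2 difference was more negative in wild type for Fos (-1.54), Egr1 (-2.13), Nfkbiz (-0.83), Cd69 (-1.51), Cd83 (-1.35), Trib3 (-0.94), Asns (-1.14), Ppp1r15a (-1.45), Atf4 (-0.74) and Ddit3 (-1.29). It was also more negative for Txnrd1 (-0.69), Ahr (-1.36), Vegfa (-0.81), Cxcr4 (-1.51), Alcam (-1.2), Myc (-1.23), Ddx21 (-0.67), Fbl (-0.54), Bbc3 (-0.91) and Prdm1 (-1.13). It was also more negative for Gabarapl1 (-1.21), Axl (-2.17), Gzmb (-2.33), Hpgds (-3.49), Cables1 (-3.29), Cd28 (-3.15), Serpinb2 (-3.14), Hbb-b1 (-3.06) and Maff (-2.87). With mouse as a block and mice 10 left out, Egr1 (adjusted p = 0.0569) and Myc (0.145) were not called, and Myc was not called after quantile normalization (0.0601) either.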

How the results depend on the processing

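Of 138 genes given as called in wild-type culture, 116 kept their call and direction under all of the alternatives run for single genes. The other 22 lost it in at least 1, with 0 reversed. The test of each probe and the stricter cutoffs (at least 2-fold, adjusted p under 0.01) were run for counts only. Calls were lost for 3 genes against the low-background arrays, 8 with the dark corner covariate, 8 after quantile normalization and 7 with mouse as a block. The reversals were of genes not called: Atf4 (-0.01 after quantile normalization, -0.08 against the low-background arrays, and -0.00 to 0.29 leaving out single arrays or mice), Cd79a (0.03 against the low-background arrays) and Fcer2a (0.08 after quantile normalization, 0.26 with the covariate, -0.44 to 0.09 leaving out single arrays or mice). The cause was not tested.

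Leaving out single arrays or mice gave 6522 to 9452 calls for culture in wild type (2156 to 2992 higher, 4245 to 6460 lower) and 910 to 1966 for the genotype difference (662 to 1232 more positive, 248 to 734 more negative). Mouse as a block gave 6724 calls for culture in wild type (2270 higher, 4454 lower), or 8797 (2698 and 6099) with mouse 10 left out. For the genotype difference the block gave 769 (564 and 205), or 234 (188 and 46) with mice 10 left out. Quantile normalization gave 3122 lower calls and 359 genotype differences (289 and 70). The covariate gave 4614 calls, 2480 of them lower, and the low-background arrays 3356 lower. Array weights gave 3387 genotype differences (1974 and 1413). More negative genotype differences numbered 320 after median centring, 289 in the fit of 4 groups and 288 when the arrays before culture were those with a dark corner ratio above 0 (mice 6 to 9). Genes with an SD above the median gave 5242 calls (1833 higher, 3409 lower) and 518 genotype differences (388 and 130), since fewer genes were tested. At least 2-fold left 2966 calls (1112 and 1854) and 229 list members, and an adjusted p under 0.01 left 5368 (1777 and 3591). The ratios carry no signal over background, so the precision of dim spots is unknown.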
